A study of Homo sapiens with 12 samples.

Results

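A set of 61 genes had higher transcript signals in MDA-MB-231 cells after transfection with each of 3 related microRNA mimics than after a negative control oligonucleotide. MDA-MB-231 is a human breast cancer cell line regarded as lacking hormone receptors and HER2. The cells received 50 nM of oligonucleotide for 48 h, and total RNA was hybridised to Affymetrix arrays, with 3 arrays for each of 4 groups. The groups were the archetype, which mimics the reference form of miR-183-5p, then minus2 and plus2, which mimic isomiRs whose 5′ and 3′ ends lie at -2 and at 2 nucleotides from those of the archetype, and last the Negative Control #1 oligonucleotide. All groups share the line, the lipid reagent and the dose, so untransfected cells are no part of the comparison. Whether a group's 3 arrays stem from separate cultures is not stated, so p-values measure the spread among these arrays alone, and that spread may be technical.

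The 61 genes were chosen by their values. Each had a mean log2 signal over the 12 arrays above 4.54, each mimic's mean at least 0.585 log2 units (1.5-fold) above the control mean, and all 9 mimic arrays above all 3 control arrays. Of 14920 genes with a mean signal above that floor, 73 met these numbers, which is 0.489%. Another 12 of them are left out by name: DKK1, CRY1, THBS1, PKP2, TGFB2, ANKRD1, CLDN1, ARRDC4 and the pregnancy-specific glycoprotein genes PSG1, PSG4, PSG5 and PSG9. Because the difference of each mimic from control chose the genes, those differences are given below as a description without a test. The 3 differences of a gene also share the same control arrays, so a low control array raises all of them. For the 61 genes only the differences between mimics were tested. The choice did not use these differences themselves, but it set a lower limit on every mimic mean and array, so the tests are not independent of it. Listed genes outside the set were also tested against control.

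MicroRNAs guide Argonaute proteins to transcripts that pair with their seed, the bases at positions 2 to 8 from the 5′ end, and such pairing lowers the transcript or its translation. A transcript that goes up after a microRNA is added is therefore not usually regarded as a direct target. A shift of the 5′ end moves the seed, so that isomiRs of 1 precursor can pair with different transcripts. The 3 mimics are shown because the genes below are those whose signals were higher with all of them, although their seeds differ. The minus2 and plus2 sequences are those of the labels, the archetype is the mature hsa-miR-183-5p of RefSeq (GRCh38.p14, chromosome 7), all are written as DNA, and capitals mark the seed.
archetype: tATGGCACtggtagaattcact
minus2: tGTATGGCactggtagaattca
plus2: tGGCACTGgtagaattcactgt
Each is 22 bases long, and 18 bases are common to the 3. The archetype seed has 5 of its 7 bases in common with the minus2 seed and 5 with the plus2 seed, while minus2 and plus2 have 3 seed bases in common.

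Over the 61 genes, the median SD between replicate arrays was 0.0604 log2 units with the archetype, 0.0505 with minus2, 0.0901 with plus2 and 0.076 in control. The median difference from control over the 61 genes was 0.88, 0.77 and 0.81 for the archetype, minus2 and plus2, and over all 14920 genes it was 0.01, 0.01 and 0.00. Genes of the line itself were present, with VIM (vimentin) at 13.80 ± 0.01 and AXL at 15.40 ± 0.01 in control (SD, n = 3). CD44 was at 14.49 ± 0.03, CAV1 at 12.31 ± 0.04 and EGFR at 11.52 ± 0.05 in control. Means with the archetype, minus2 and plus2 were 13.69, 13.69 and 13.59 for VIM and 15.66, 15.43 and 15.25 for AXL. In the same order they were 14.11, 14.04 and 14.11 for CD44, 12.26, 12.24 and 11.68 for CAV1 and 12.10, 10.92 and 11.81 for EGFR. ESR1 and PGR, the hormone receptor genes, lay below the floor. Other genes listed as low in this line were above the floor, with KRT8 at 13.83 ± 0.05, EPCAM at 8.61 ± 0.12 and CDH1 at 4.92 ± 0.12 in control. CDH1 averaged 5.34 ± 0.08, 4.96 ± 0.08 and 6.06 ± 0.12 with the archetype, minus2 and plus2. ERBB2, also on that list, had no value among the genes used. Of markers of other cells, 1 of 4 for white blood cells (PTPRC), 4 of 5 for fibroblasts (PDGFRA, LUM, DCN and THY1) and 3 of 4 for endothelium (PECAM1, CDH5 and VWF) lay below the floor. Above it were CD3E, CD14, LYZ, PDGFRB and KDR. By limma, CD14 rose with minus2 (0.22) and plus2 (0.28), PDGFRB rose with plus2 (0.33), and CD3E and LYZ were not called with any mimic. The mean log2 signal of the white cell markers ran over arrays from 4.69 to 4.75 with the archetype, 4.72 to 4.83 with minus2 and 4.77 to 4.81 with plus2, against 4.61 to 4.79 in control. KDR, an endothelial receptor gene, averaged 5.31 ± 0.10, 5.30 ± 0.04 and 5.57 ± 0.19 in the archetype, minus2 and plus2 groups, against 4.95 ± 0.06 in control. It was called higher with each mimic by limma (0.36, 0.35 and 0.62). The part of these markers in the results was not tested.

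Of the 61 genes, 59 are protein-coding in RefSeq, 1 is a pseudogene (C1DP3) and 1 an antisense RNA (RBMS3-AS3). Their control means ran from 4.17 to 14.47 with a median of 9.01, so the set spans weak and strong signals. All but RBMS3-AS3 had a control mean above the floor, whereas RBMS3-AS3 passed it only through the mimic arrays. The smallest of a gene's 3 differences from control ran from 0.59 (LIMCH1) to 1.76 (CPA4), with a median of 0.68. It was at least 1, a doubling on the linear scale or more, in 4 genes: CPA4, ADGRF1, SLC7A5 and MET. The gap between the lowest mimic array and the highest control array ran from 0.21 (C1DP3) to 1.44 (CPA4), with a median of 0.56. Plus2 gave the highest of the 3 differences in 26 genes, minus2 in 19 and the archetype in 16.

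**Figure D1:**
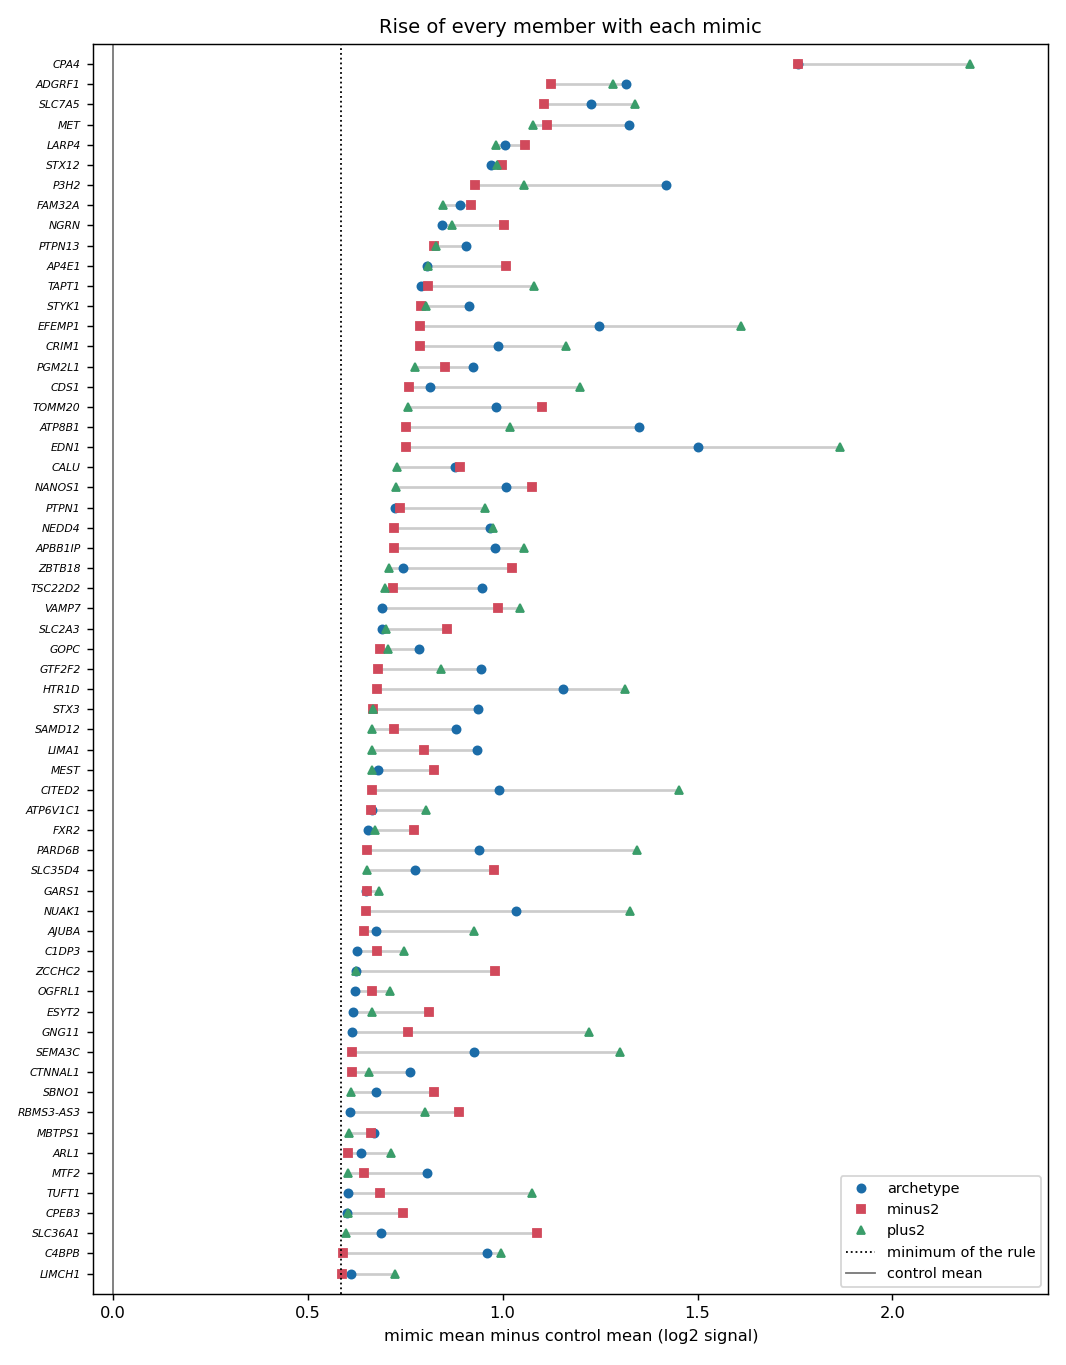
Difference of each mimic's mean from the control mean (log2 signal, x axis) for the 61 genes (y axis), ordered by their smallest difference; circles are the archetype, squares minus2 and triangles plus2, each from 3 arrays a group. CPA4 stands at the top with 1.76 or more for every mimic (its archetype and minus2 symbols coincide), and the width of the grey lines shows that EDN1, EFEMP1 and CITED2 spread most between mimics.

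Genes whose smallest difference lay just above the limit were SLC36A1 (0.60), C4BPB (0.59) and LIMCH1 (0.59). Just below it were CCDC80 (0.58), BANF1 (0.57) and DERL1 (0.57), whose mimic arrays also lay above all control arrays. The limit thus cuts through a continuous range of values.

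CPA4 encodes a secreted zinc carboxypeptidase that removes residues from the carboxyl end of proteins. Its log2 signal was 11.03, 10.77 and 11.15 with the archetype, 11.09, 10.77 and 11.09 with minus2 and 11.26, 11.16 and 11.85 with plus2, against 9.33, 9.02 and 9.33 in control. Every mimic array lay at least 1.44 above the highest control array, and plus2 replicate 3 was the highest of all. On the linear scale the archetype, minus2 and plus2 means were 3.38, 3.38 and 4.59 times the control mean. Plus2 was above minus2 by 0.44 (95% interval 0.06 to 0.82), which did not pass the test over all genes (limma, Benjamini-Hochberg adjusted p = 0.065). Of 7 other tested genes of that family and its inhibitor latexin, 0 rose with any mimic at the adjusted threshold of 0.05 in limma (at an unadjusted p under 0.05, 0 with the archetype or minus2 and 2 with plus2 were higher), while CPD fell with the archetype (-0.26) and plus2 (-0.39), as did CPM (-0.38 and -0.41). Among all tested genes, 24.6% changed with the archetype (14.3% rose and 10.3% fell), 29.4% with minus2 (17.5% and 11.9%) and 33.6% with plus2 (17.4% and 16.2%). These shares are the background for all lists below.

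ADGRF1, an adhesion G protein-coupled receptor, had signals of 10.13, 10.22 and 10.10 with the archetype, 9.88, 10.09 and 9.90 with minus2 and 10.12, 10.22 and 10.00 with plus2, against 8.77, 8.94 and 8.79 in control. The plus2 arrays overlapped those of both other mimics, the minus2 arrays lay just below the archetype arrays, and no pair of mimics was called. MET, the receptor tyrosine kinase for hepatocyte growth factor, lay at 13.37, 13.23 and 13.29 with the archetype, 13.11, 13.05 and 13.09 with minus2 and 13.04, 13.03 and 13.07 with plus2, against 11.97, 12.03 and 11.92 in control. All archetype arrays were above all other arrays for MET. The difference was -0.21 ± 0.05 (SE) for minus2 minus archetype and -0.24 ± 0.05 for plus2 minus archetype (limma adjusted p = 0.0055 and 0.0019).

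SLC7A5 encodes a plasma membrane exchanger of large neutral amino acids, also known as LAT1. Its signal was 13.75, 13.74 and 13.79 with the archetype, 13.55, 13.70 and 13.66 with minus2 and 14.04, 13.89 and 13.68 with plus2, against 12.53, 12.57 and 12.49 in control. It is among the stronger signals of the set and more than doubled on the linear scale with each mimic. SLC2A3, the glucose transporter GLUT3, was at 9.61, 9.62 and 9.57 with the archetype, 9.85, 9.73 and 9.72 with minus2 and 9.43, 9.47 and 9.94 with plus2, against 8.99, 8.97 and 8.77 in control. These are 2 of 13 listed plasma membrane transporters of glucose and amino acids.

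Of the 11 other transporters on that list, 3 rose and 1 fell with the archetype, 5 rose and 2 fell with minus2, and 4 rose and 1 fell with plus2 (limma). SLC38A2, a sodium-coupled neutral amino acid transporter, rose by 0.22, 0.18 and 0.57 with the archetype, minus2 and plus2, and its relative SLC38A4 by 0.47, 0.24 and 1.08. The glutamate transporter gene SLC1A1 fell by 0.30 with the archetype and by 0.41 with minus2. The main glucose transporter gene of many tumour cells, SLC2A1, differed by -0.05, 0.12 and 0.03 and did not pass. The medians of the 11 genes were 0.05, 0.18 and 0.08.

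P3H2 encodes a prolyl 3-hydroxylase that acts on collagens in the endoplasmic reticulum. It lay at 9.90, 9.81 and 9.92 with the archetype, 9.40, 9.28 and 9.49 with minus2 and 9.49, 9.42 and 9.63 with plus2, against 8.43, 8.41 and 8.54 in control. The archetype arrays were above all arrays of the other mimics. Its difference was -0.49 ± 0.07 for minus2 minus archetype and -0.36 ± 0.07 for plus2 minus archetype (limma adjusted p = 0.00024 and 0.0017).

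LARP4, an RNA-binding protein that holds the poly(A) tail of messenger RNAs, and STX12, a syntaxin of endosomes, had no pair of mimics called. LARP4 was at 12.04, 11.96 and 11.92 with the archetype, 12.04, 12.04 and 11.996 with minus2 and 11.91, 12.03 and 11.90 with plus2, against 10.97, 11.07 and 10.85 in control. STX12 was at 8.70, 8.53 and 8.53 with the archetype, 8.72, 8.63 and 8.51 with minus2 and 8.62, 8.48 and 8.71 with plus2, against 7.67, 7.66 and 7.53 in control. Both had about a doubled linear signal with every mimic. The 95% intervals of their 3 differences between mimics lay within -0.21 and 0.18 for LARP4 and within -0.18 and 0.19 for STX12.

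**Figure D2:**
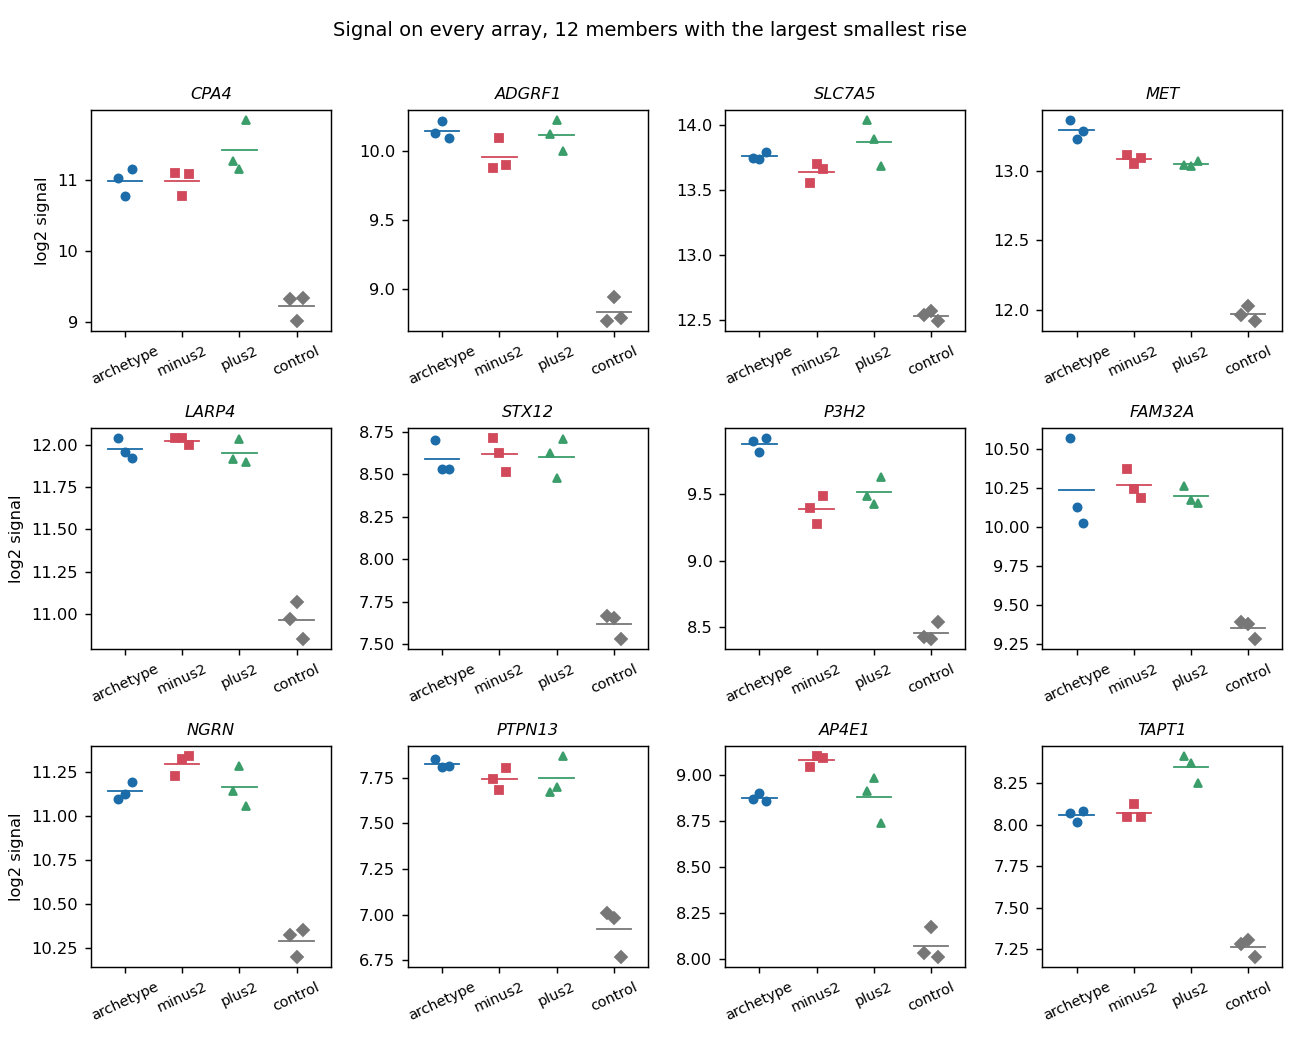
Log2 signal on every array (points) and group mean (lines) for the 12 genes with the largest smallest difference from control, with the archetype, minus2, plus2 and control groups from left to right and 3 arrays each; each panel has its own y axis, which does not start at 0. All mimic points lie above all control points, and in MET and P3H2 the archetype points lie above those of both isomiRs.

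FAM32A, a small nuclear protein, showed 10.57, 10.13 and 10.02 with the archetype, 10.38, 10.24 and 10.19 with minus2 and 10.27, 10.18 and 10.15 with plus2, against 9.39, 9.38 and 9.28 in control. Archetype replicate 1 stood above the other mimic arrays. NGRN, which acts on the large subunit of the mitochondrial ribosome, was at 11.10, 11.13 and 11.20 with the archetype, 11.23, 11.32 and 11.34 with minus2 and 11.14, 11.29 and 11.06 with plus2, against 10.33, 10.20 and 10.36 in control. Minus2 was the highest mimic for NGRN, with a difference from the archetype of 0.16 (95% interval 0.02 to 0.30), and neither gene passed the F test among mimics (limma adjusted p = 0.88 and 0.13).

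PTPN13, a large non-receptor tyrosine phosphatase, lay at 7.85, 7.81 and 7.81 with the archetype, 7.74, 7.68 and 7.80 with minus2 and 7.67, 7.70 and 7.87 with plus2, against 7.01, 6.98 and 6.77 in control. The plus2 arrays of PTPN13 spanned those of minus2 and the archetype. AP4E1, a subunit of the AP-4 coat that sorts cargo at the Golgi, lay at 8.87, 8.90 and 8.86 with the archetype, 9.04, 9.10 and 9.09 with minus2 and 8.91, 8.98 and 8.74 with plus2, against 8.03, 8.17 and 8.01 in control. Minus2 was the highest group for AP4E1. Minus2 minus archetype was 0.20 ± 0.06 (limma adjusted p = 0.038), a call lost in 9 of 21 alternative analyses, among them each one that left out an archetype or a minus2 array. Plus2 minus minus2 was -0.20 ± 0.06 (adjusted p = 0.026), lost in 6, among them without minus2 replicate 2 or 3 or plus2 replicate 3.

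TAPT1, a membrane protein linked to primary cilia, was at 8.07, 8.01 and 8.08 with the archetype, 8.05, 8.12 and 8.05 with minus2 and 8.41, 8.37 and 8.25 with plus2, against 7.28, 7.31 and 7.20 in control. All plus2 arrays lay above the other mimic arrays, by 0.29 ± 0.05 for plus2 minus archetype and 0.27 ± 0.05 for plus2 minus minus2 (limma adjusted p = 0.0014 and 0.0013).

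The comparison between mimics asked whether the genes were raised equally. By a moderated F test over the 3 mimics, 38 of the 61 genes (62.3%) differed, where 44.6% of all 14920 genes did. For plus2 minus minus2, 32 genes (52.5%) were called against 38.8% of all genes, 22 higher with plus2 (17.8% of all genes) and 10 lower (21.0%). For minus2 minus archetype, 25 (41.0%) were called against 24.3%, 7 higher with minus2 (12.5% of all genes) and 18 lower (11.9%). Leaving out minus2 replicate 3 reduced this count from 25 to 15. For plus2 minus archetype, 24 (39.3%) were called against 28.9%, 14 higher with plus2 (13.0% of all genes) and 10 lower (15.9%). The medians of the 3 differences over the 61 genes were 0.03, -0.02 and 0.01 in that order. Genes required to lie well above control with every mimic are not a sample of all genes, so the shares over all genes serve only as background.

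**Figure D3:**
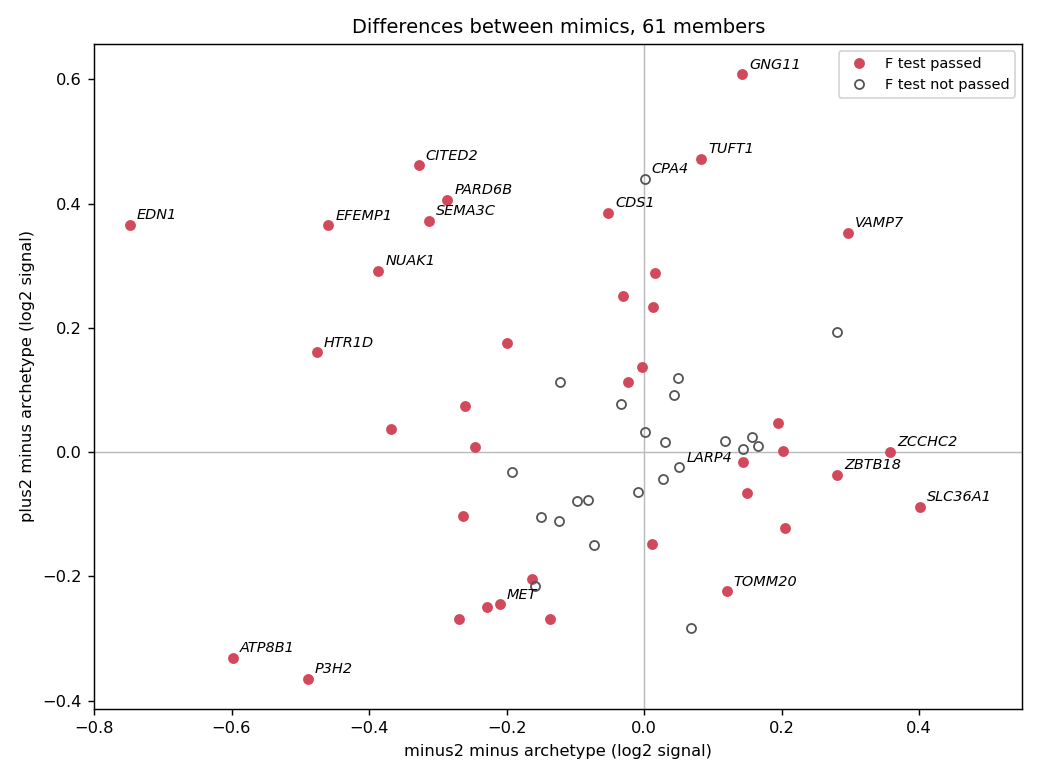
Difference between mimics in log2 signal for the 61 genes, with minus2 minus archetype on the x axis and plus2 minus archetype on the y axis; filled points passed the limma F test among mimics and open points did not. The upper left holds EDN1, EFEMP1, CITED2, PARD6B, SEMA3C and NUAK1, which were higher with plus2 and lower with minus2 than with the archetype, and the lower left holds ATP8B1 and P3H2, highest with the archetype.

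In 12 genes minus2 was below both other mimics with both differences called, a pattern met by 8.36% of all tested genes: EFEMP1, CRIM1, ATP8B1, EDN1, NEDD4, APBB1IP, HTR1D, CITED2, PARD6B, NUAK1, SEMA3C and C4BPB. In 13 genes plus2 was above both others, as in 8.36% of all genes. These were EFEMP1, EDN1, CITED2, PARD6B, NUAK1 and SEMA3C, which belong to both sets (2.26% of all genes do), and TAPT1, CDS1, PTPN1, ATP6V1C1, AJUBA, GNG11 and TUFT1. Those 6 shared genes had an order of plus2, archetype, minus2, with all 3 pairs called. The archetype was above both isomiRs in 6 genes (3.18% of all), MET, P3H2, ATP8B1, TSC22D2, STX3 and MTF2, and below both in 1 (3.43% of all), VAMP7. Minus2 was above both others in 6 genes (8.63% of all), AP4E1, ZBTB18, ZCCHC2, ESYT2, SBNO1 and SLC36A1, and plus2 was below both in 2 (11.4% of all), TOMM20 and CALU. No pair was called in 20 genes, or in 51.3% of all genes. The calls of CRIM1, NEDD4, APBB1IP, NUAK1, PTPN1, ATP6V1C1, AJUBA, MTF2, ESYT2, SBNO1 and CALU were not followed through the alternative analyses.

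EDN1 encodes endothelin-1, a secreted peptide that signals through G protein-coupled receptors. Its signal was 7.16, 7.23 and 7.24 with the archetype, 6.49, 6.48 and 6.43 with minus2 and 7.84, 7.61 and 7.27 with plus2, against 5.80, 5.52 and 5.81 in control. The 4 groups did not overlap. Plus2 minus minus2 was 1.11 ± 0.12 (SE, limma adjusted p = 1.7e-05), the largest difference between mimics in the set, and minus2 minus archetype was -0.75 ± 0.12 (adjusted p = 0.00068). Plus2 minus archetype was 0.37 ± 0.12 (limma adjusted p = 0.038), and that call was lost in 10 of 21 alternatives (adjusted p up to 0.13). These were 8 that left out an array (any 1 of the archetype or minus2 arrays, or plus2 replicate 1 or 2), the fit without a filter on mean signal and the fit of only the arrays compared. Of 4 other tested genes of the endothelin axis, EDN2 rose with plus2 (0.71), and the receptor gene EDNRB rose with the archetype (0.32) and minus2 (0.26), while EDN3 and the converting enzyme gene ECE1 did not pass with any mimic.

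Among the other secreted proteins, EFEMP1 (fibulin-3, of the extracellular matrix) was at 8.05, 8.13 and 8.11 with the archetype, 7.54, 7.73 and 7.65 with minus2 and 8.46, 8.59 and 8.34 with plus2, against 6.89, 6.88 and 6.79 in control. SEMA3C, a secreted guidance factor that binds neuropilins and plexins, was at 10.29, 10.25 and 10.36 with the archetype, 10.01, 9.98 and 9.97 with minus2 and 10.77, 10.67 and 10.59 with plus2, against 9.36, 9.40 and 9.35 in control. In both genes the 4 groups were fully apart. Plus2 minus minus2 was 0.82 ± 0.07 for EFEMP1 and 0.69 ± 0.05 for SEMA3C (limma adjusted p = 2.0e-06 and 7.7e-07). C4BPB, the beta chain of the complement regulator C4b-binding protein, was higher than control by 0.96, 0.59 and 1.00 with the archetype, minus2 and plus2, and its minus2 minus archetype call was lost without any 1 of the archetype arrays or without minus2 replicate 3, the last of which also ended its plus2 minus minus2 call. CALU (calumenin, a calcium-binding protein of the secretory pathway) was higher by 0.88, 0.89 and 0.73, at one of the strongest signals of the set.

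For secreted ligands outside the set, a list held 24 tested genes. Of these, 4 rose and 6 fell with the archetype, 2 rose and 7 fell with minus2, and 7 rose and 7 fell with plus2 (limma), with medians of -0.07, -0.05 and -0.01. CSF3, which encodes granulocyte colony-stimulating factor, fell with all 3 (-1.17, -0.92 and -1.16), as did EREG (-0.56, -0.39 and -0.39). INHBA, a subunit of activin, rose with the archetype (0.40) and plus2 (0.48).

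Polarity, adhesion and actin genes made up 5 of the set. PARD6B, a component of the Par polarity complex, was at 11.39, 11.34 and 11.51 with the archetype, 11.16, 11.10 and 11.12 with minus2 and 11.66, 11.78 and 12.02 with plus2, against 10.52, 10.45 and 10.45 in control. The 4 groups were again apart, with plus2 minus minus2 at 0.69 ± 0.08 and plus2 minus archetype at 0.41 ± 0.08 (limma adjusted p = 2.3e-05 and 0.0020). Its minus2 minus archetype difference of -0.29 ± 0.08 (adjusted p = 0.018) was lost without archetype replicate 3, minus2 replicate 2 or minus2 replicate 3. AJUBA, a LIM-domain adaptor of cell junctions, was higher than control by 0.68, 0.65 and 0.93 with the archetype, minus2 and plus2. LIMA1, which crosslinks actin filaments, was higher by 0.93, 0.80 and 0.67, LIMCH1, an activator of non-muscle myosin, by 0.61, 0.59 and 0.72, and CTNNAL1 (alpha-catulin) by 0.76, 0.61 and 0.66. Plus2 minus archetype was -0.27 ± 0.06 for LIMA1 (limma adjusted p = 0.0046). LIMCH1 was above minus2 with plus2 by 0.14 ± 0.04 (adjusted p = 0.028), lost in 6 of 21 alternatives, among them without any 1 of the minus2 arrays and without plus2 replicate 2 or 3.

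Actin genes controlled by SRF, the serum response factor, were listed as well. Of 11 tested MRTF and SRF target genes, 3 rose and 2 fell with the archetype, 3 rose and 1 fell with minus2 and 3 rose and 5 fell with plus2 (limma), and none is among the 61. SRF fell with the archetype (-0.27) and plus2 (-0.66) and rose with minus2 (0.34). Of 9 tested early response genes of TGF-beta, 0 rose with the archetype or minus2 and 1, TGFBI, with plus2 (0.54), while 4, 6 and 5 fell with the archetype, minus2 and plus2 (limma). At an unadjusted p under 0.05 the counts that were higher were again 0, 0 and 1.

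Receptors and signalling proteins showed the same range of patterns. HTR1D, a serotonin receptor, was at 7.33, 6.70 and 7.26 with the archetype, 6.54, 6.61 and 6.71 with minus2 and 7.35, 7.42 and 7.00 with plus2, against 5.97, 5.94 and 5.92 in control. Plus2 lay above minus2 by 0.64 ± 0.15 (limma adjusted p = 0.0045), while 1 archetype array fell within the minus2 range. The minus2 minus archetype difference of -0.48 ± 0.15 (adjusted p = 0.034) was lost in 7 of 21 alternatives, among them without archetype replicate 1 or 3 or any 1 of the minus2 arrays (up to 0.13). A further transcript cluster for HTR1D was higher than control by 0.72, 0.40 and 0.81, the same order of mimics at a smaller size.

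GNG11, a G protein gamma subunit, was at 8.71, 8.60 and 8.50 with the archetype, 8.92, 8.71 and 8.61 with minus2 and 9.17, 9.27 and 9.20 with plus2, against 8.12, 7.92 and 7.93 in control. Plus2 stood apart from both other mimics, by 0.61 ± 0.08 over the archetype and 0.47 ± 0.08 over minus2 (limma adjusted p = 0.00027 and 0.00097). CRIM1, a membrane protein that binds bone morphogenetic proteins, was higher than control by 0.99, 0.79 and 1.16 with the archetype, minus2 and plus2, STYK1, a receptor-like kinase, by 0.91, 0.79 and 0.80, and APBB1IP (RIAM, which brings talin to integrins) by 0.98, 0.72 and 1.06. NUAK1, a kinase related to AMPK, was higher by 1.04, 0.65 and 1.33, with plus2 minus minus2 at 0.68 ± 0.09 (limma adjusted p = 6.8e-05). The phosphatase gene PTPN1 (PTP1B) was higher by 0.72, 0.74 and 0.96, and the ubiquitin ligase gene NEDD4 by 0.97, 0.72 and 0.97.

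The set holds 6 genes of transcription and chromatin, which all passed the F test among mimics that 44.6% of all tested genes passed. The groups by function were formed after values were seen and were not tested against each other. CITED2, a partner of the coactivators CBP and p300, was at 10.49, 10.32 and 10.43 with the archetype, 10.04, 10.11 and 10.10 with minus2 and 10.97, 10.86 and 10.80 with plus2, against 9.44, 9.55 and 9.28 in control. The groups were apart in the order plus2, archetype, minus2, and plus2 minus minus2 was 0.79 ± 0.07 (limma adjusted p = 4.6e-06). ZBTB18, a zinc finger repressor, was highest with minus2, at 0.74, 1.03 and 0.71 above control with the archetype, minus2 and plus2. Its archetype and plus2 groups were not called apart. SBNO1, a helicase-like nuclear protein, was higher by 0.68, 0.82 and 0.61. The archetype was the highest mimic for TSC22D2 (0.95, 0.72 and 0.70), MTF2, an accessory protein of Polycomb complex PRC2 (0.81, 0.64 and 0.60), and GTF2F2, a subunit of the general factor TFIIF (0.94, 0.68 and 0.84). Plus2 minus minus2 was -0.32 ± 0.08 for ZBTB18 (limma adjusted p = 0.0070). The minus2 minus archetype calls of ZBTB18 (0.28, adjusted p = 0.022) and TSC22D2 (-0.23, adjusted p = 0.018) were lost without minus2 replicate 2 and without archetype replicate 1 or 2, and that of ZBTB18 also without archetype replicate 3 or minus2 replicate 3.

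The genes of RNA binding and translation, a group also formed after values were seen, number 6. The F test called 0 of them (limma adjusted p between 0.087 and 0.75), against 44.6% of all tested genes. Of these genes 1, FXR2, had an unadjusted p under 0.05 in that test. Besides LARP4 and NGRN these were GARS1, the glycyl-tRNA synthetase (0.65, 0.65 and 0.68 above control with the archetype, minus2 and plus2), FXR2, a paralogue of the fragile X protein (0.66, 0.77 and 0.67), CPEB3, which binds cytoplasmic polyadenylation elements (0.60, 0.74 and 0.60), and NANOS1, an RNA-binding repressor (1.01, 1.08 and 0.73). The 95% intervals of the differences between mimics were within -0.08 and 0.12 for GARS1 but reached from -0.67 to -0.03 for plus2 minus minus2 in NANOS1. The absence of a call is thus no evidence of equality in NANOS1. The same holds for FXR2, whose interval ran from 0.02 to 0.21 for minus2 minus archetype. The 20 genes with no pair of mimics called include CPA4, ADGRF1, LARP4, STX12, FAM32A, NGRN and PTPN13 of the 12 described above. Some of their intervals also left out 0, as for plus2 minus archetype in CPA4 (0.06 to 0.82). For minus2 minus archetype this was so in ADGRF1 (-0.36 to -0.03), NGRN (0.02 to 0.30) and CTNNAL1 (-0.28 to -0.01). An equal rise with all mimics was therefore not shown for these genes either.

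Genes of membrane traffic number 8, of which 4 passed the F test, near the share of 44.6% over all genes. VAMP7, a SNARE of late endosomes and lysosomes, was at 10.47, 10.44 and 10.34 with the archetype, 10.76, 10.61 and 10.77 with minus2 and 10.63, 10.82 and 10.86 with plus2, against 9.71, 9.84 and 9.63 in control. It is the single gene in which the archetype lay below both isomiRs with both differences called, by 0.35 ± 0.07 for plus2 minus archetype and 0.30 ± 0.07 for minus2 minus archetype (limma adjusted p = 0.0041 and 0.013). The minus2 minus archetype call was lost without archetype replicate 3, minus2 replicate 1 or minus2 replicate 3 (adjusted p up to 0.057). A further cluster for VAMP7 gave 0.72, 1.02 and 1.05 above control with the archetype, minus2 and plus2.

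STX3, a plasma membrane syntaxin, was highest with the archetype (0.94, 0.67 and 0.67 above control with the archetype, minus2 and plus2), with -0.27 ± 0.06 for each isomiR minus the archetype (limma adjusted p = 0.0084 for minus2 and 0.0074 for plus2). ESYT2, which tethers the endoplasmic reticulum to the plasma membrane, was highest with minus2 (0.62, 0.81 and 0.66). GOPC, a PDZ protein of the Golgi (0.78, 0.69 and 0.71), ARL1, a GTPase of the trans-Golgi (0.64, 0.60 and 0.71), and MBTPS1, the site-1 protease that cleaves sterol-regulated factors (0.67, 0.66 and 0.61), were spread less. Of these, ARL1 was higher with plus2 than with minus2 by 0.11 (limma adjusted p = 0.048). It did not pass the F test among mimics (limma adjusted p = 0.097), and its call was not followed through the alternatives. All intervals between mimics for GOPC, ARL1 and MBTPS1 lay within -0.24 and 0.20.

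Among transporters and organelle proteins, SLC36A1, a proton-coupled amino acid transporter of lysosomes, was at 6.50, 6.40 and 6.61 with the archetype, 6.89, 6.95 and 6.88 with minus2 and 6.44, 6.34 and 6.47 with plus2, against 5.86, 5.87 and 5.72 in control. Minus2 was above both others, by 0.40 ± 0.06 for minus2 minus archetype and with plus2 minus minus2 at -0.49 ± 0.06 (limma adjusted p = 0.00058 and 6.7e-05). TOMM20, an import receptor of the outer mitochondrial membrane, was lowest with plus2 (0.98, 1.10 and 0.76 above control with the archetype, minus2 and plus2), with plus2 minus minus2 at -0.34 ± 0.04 (limma adjusted p = 6.7e-05). ATP8B1, a phospholipid flippase, was highest with the archetype (1.35, 0.75 and 1.02), with minus2 minus archetype at -0.60 ± 0.08 (limma adjusted p = 0.00013). Its plus2 minus minus2 difference of 0.27 ± 0.08 (adjusted p = 0.015) was lost without minus2 replicate 2 or plus2 replicate 3. Among the rest, ATP6V1C1, a subunit of the proton pump V-ATPase, was higher than control by 0.67, 0.66 and 0.80, and SLC35D4, a member of the nucleotide sugar transporter family, by 0.77, 0.98 and 0.65. SLC7A5 was higher with plus2 than with minus2 by 0.23 ± 0.08 (limma adjusted p = 0.029), but not without minus2 replicate 1 or 3 or plus2 replicate 1 or 2 (up to 0.11). SLC7A5 did not pass the F test among mimics (limma adjusted p = 0.067).

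The other members were of mixed roles. ZCCHC2, a little studied zinc finger protein, was highest with minus2 (0.62, 0.98 and 0.62 above control with the archetype, minus2 and plus2), with minus2 minus archetype at 0.36 ± 0.07 and plus2 minus minus2 at -0.36 ± 0.07 (limma adjusted p = 0.0019 and 0.0010). TUFT1 (tuftelin) was highest with plus2 (0.60, 0.69 and 1.07), as was CDS1, which makes CDP-diacylglycerol for phosphoinositide synthesis (0.81, 0.76 and 1.20). Plus2 minus archetype was 0.47 ± 0.08 for TUFT1 (limma adjusted p = 0.00077) and 0.39 ± 0.11 for CDS1 (adjusted p = 0.018), the second lost without archetype replicate 2 or 3 or plus2 replicate 3. PGM2L1, which makes glucose 1,6-bisphosphate (0.93, 0.85 and 0.77), the imprinted gene MEST (0.68, 0.82 and 0.67), SAMD12 (0.88, 0.72 and 0.67) and OGFRL1 (0.62, 0.67 and 0.71) complete the coding genes. C1DP3 (0.63, 0.68 and 0.75) and RBMS3-AS3 (0.61, 0.89 and 0.80) had the weakest signals of the set.

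The promoters of the genes were read from RefSeq (GRCh38.p14) as windows from 250 bases before to 50 after the start site, which were found for 48 of the 61 genes and 10706 of the tested genes. Their median GC content was 64.8% in the set and 64.7% over all tested genes. Motifs were searched on both strands. The AP-1 motif, spelled TGANTCA, was found in 2 of the 48 promoters, which is 4.17%, against 4.93% of all tested genes. The TEAD motif, CATTCC, was found in 7 (14.6%, against 11.0% of all). The NF-Y motif, CCAAT, was the most frequent and was found in 19 (39.6%, against 36.7% of all). An E-box, searched as CACGTG, was found in 5 (10.4%, against 9.89% of all). The core of the cyclic AMP response element, TGACG, was found in 14 (29.2%, against 33.1% of all), and the TATA box, TATAAA, in 2 (4.17%, against 6.36% of all). Each share in the set was near that of all tested genes. A match describes letters, not binding.

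**Figure D4:**
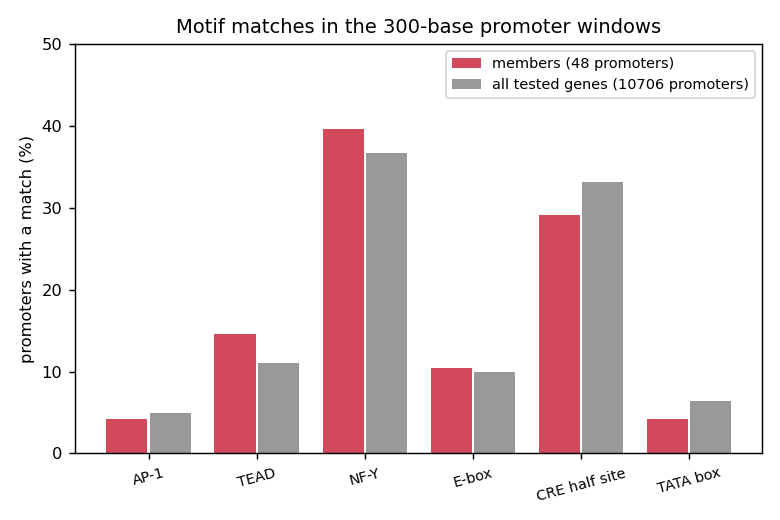
Share of promoters (percent, y axis, from 0) with at least 1 match of each of 6 motifs, for the 48 promoters of the set (left bars) and the 10706 promoters of all tested genes (right bars). The bars of a motif are close, for example 39.6% and 36.7% for NF-Y.

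The upstream stretches of the genes with the largest and the third largest smallest difference are shown because they illustrate unlike promoters within the set. CPA4 (chr7:130293011-130293160, plus strand) holds 2 AP-1 motifs and a TATA box, whose matches on both strands are in capitals. It also holds a TEAD match that starts at -134 and an NF-Y match at -120 from the start site, left in lower case. SLC7A5 (chr16:87869508-87869657, minus strand) is rich in G and C and holds an E-box, in capitals. A TGACG match of SLC7A5 starts at -2 and runs past the printed bases, and another at -249 lies before them. Each printed stretch runs over the 150 bases before the start site.
CPA4: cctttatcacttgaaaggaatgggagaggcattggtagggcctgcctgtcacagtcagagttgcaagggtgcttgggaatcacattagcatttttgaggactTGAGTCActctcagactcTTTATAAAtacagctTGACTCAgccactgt
SLC7A5: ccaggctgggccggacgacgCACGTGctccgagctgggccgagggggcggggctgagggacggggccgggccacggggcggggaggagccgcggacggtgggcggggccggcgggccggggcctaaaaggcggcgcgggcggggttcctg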

How the data were processed

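The deposited table holds log2 signals made by the authors, 1 column per array. The submitters' processing notes name Expression Console 1.4.1 of Affymetrix and the RMA method but give no settings. RMA removes background, equalises array distributions and combines the probes of a feature. That the scale is log2 was read from the values, and no source used here gives the build of the annotation. Of 70523 features, 67528 were transcript clusters, of which 23781 had 1 gene symbol. Symbols were updated through RefSeq (22407 of 22411 genes matched), and the cluster with the highest mean was used for the 528 genes with several. Genes with a mean above 4.54 were tested (14920).

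The 4 group means were estimated in 1 model of the 12 arrays by limma 3.58.1 (R 4.3.3, 8 residual degrees of freedom), with Benjamini-Hochberg adjustment over all tested genes of a contrast and a threshold of 0.05. An exact test of 3 against 3 arrays cannot go below 0.1. The fit was tested on simulated data. Errors are SD of signals and SE of differences. The number of arrays limits the precision.

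The members and lists were chosen with earlier results of these data known. By the rule for named genes, the 12 members with the largest smallest difference are given on every array, and the 5 largest called differences per direction and contrast with their tests. Array values of EDN1, EFEMP1, SEMA3C, PARD6B, HTR1D, GNG11, CITED2, VAMP7 and SLC36A1 were added after values were seen, as were the functional groups of members. Alternatives were another scaling, weights, filters, a replicate block and leaving out arrays. Replicate numbers were not treated as pairs in the main fit, because the labels do not say what a number shares. Deviations of same-numbered arrays correlated between -0.045 and 0.27, and those of other-numbered arrays between -0.27 and 0.16. Same-numbered arrays correlated more than all others between plus2 and control (0.023 to 0.222 against -0.205 to 0.021). This also held between plus2 and the archetype and between plus2 and minus2, while the ranges of the remaining pairs of groups overlapped. A shared replicate effect is therefore possible.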

Additional observations from a re-analysis of the deposited data

Results flagged for a closer look

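Outside the genes described, 55 transcript clusters with several gene symbols or none met the same numbers, of 20932 such clusters above the floor (0.263%), with every mimic array above every control array. They were not named or analysed further here. No group had enough arrays for a test of single outlying arrays.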

How the results depend on the processing

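The number of genes meeting the rule was 53 after centring arrays on their medians, 55 after quantile normalisation, 60 with the mean of a gene's clusters, 59 with a mean signal above 6, and between 54 and 67 with 1 array left out. With a limit of 1 log2 unit it was 4. Counts called between mimics stayed within 1.5 times of those reported under every other alternative except 1. With 1 array left out they ran from 15 to 28 for minus2 minus archetype, from 19 to 25 for plus2 minus archetype, from 26 to 32 for plus2 minus minus2 and from 34 to 39 for the F test. The low of 15 came without minus2 replicate 3. With the replicate block they were 28, 25, 35 and 39. Array weights gave 30, 24, 33 and 40. Of 54 called differences of named genes, 40 stayed called under all 21 alternatives and 14 were lost under at least 1, and none of the 102 differences examined changed sign with a call. Single calls of the members outside the rule for named genes were not followed. Over the 95 listed genes that are not members, calls against control ran with 1 array left out from 28 to 39 with the archetype, from 35 to 48 with minus2 and from 44 to 50 with plus2, and were 39, 48 and 54 with the replicate block. These alternatives for listed genes were added after seeing the data. Weak signals near the floor, as in C1DP3 and RBMS3-AS3, may not be above background.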

Other observations

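Some of the genes are near neighbours in RefSeq (GRCh38.p14, protein-coding order). LIMA1 and LARP4 have 1 coding gene between them, FAM186A, which lay below the floor. The flanking genes differed less from control with the archetype, minus2 and plus2, CERS5 by 0.09, 0.35 and 0.27 and DIP2B by 0.15, 0.26 and 0.24. PTPN1 and PARD6B also have 1 gene between them, RIPOR3, which differed by 0.02, -0.01 and 0.06. CPA4 and MEST lie in a cluster with 3 genes between them, of which CPA5 was below the floor, CPA1 differed by -0.03, 0.01 and 0.00 and CEP41 by 0.26, 0.10 and -0.10. COPG2, a coat protein gene next to MEST, was higher by 0.44, 0.36 and 0.78. CDS1 and PTPN13 have 3 genes between them, of which WDFY3 was higher by 0.25, 0.38 and 0.31 and ARHGAP24 differed by -0.25, -0.59 and 0.16. Whether such pairs are more frequent than in other gene sets was not tested.

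Some listed genes outside the set also showed wide differences between mimics. NFYA and NFYB, subunits of the factor NF-Y, rose with minus2 (1.18 and 1.00), while NFYC fell (-0.64), by limma with Benjamini-Hochberg adjustment. Of 12 tested p53 target genes, 1 rose and 1 fell with the archetype, 4 rose and 3 fell with minus2 and 3 rose and 3 fell with plus2, and PLK2, a Polo-like kinase gene, rose with all 3 (0.97, 0.30 and 1.09). Of 14 tested genes of the centriole's distal end and appendages, 2 rose and 3 fell with the archetype, 2 rose and 3 fell with minus2 and 3 rose and 5 fell with plus2. Among them C2CD3 rose by 1.66, 0.80 and 0.54, and its difference with plus2 was just below the limit of the set.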
